A study of Mus musculus with 71 samples.

Results

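Reticulocytes are young red cells that have lost their nucleus and still carry RNA, ribosomes and organelles. While they mature, they clear most of these by proteasome degradation and autophagy, and much of that clearance runs through ubiquitin, which is passed from a conjugating enzyme (E2) to a ligase (E3) and on to the target protein. The red cell line keeps its own set of such enzymes, expressed at high levels at the end of its differentiation, together with genes for expelling the nucleus and for survival of the maturing cell.

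The genes described here were chosen by symbol as 9 of this programme, namely Trim10, Trim58, Ube2o, Ube2h, Fbxo7, Xpo7, Bcl2l1, Tspan33 and Hemgn. All 9 were found among the 10508 genes with variance-stabilized values and among the 55416 genes with counts. Trim58 and Ube2o lie on chromosome 11 and Ube2h and Tspan33 on chromosome 6, while the other members lie on separate chromosomes.

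RNA of whole blood was sequenced from 71 mice in 6 groups, after poly A selection and depletion of globin RNA. By the methods of the study, mice were 6 weeks old at inclusion. The 11 control mice received PBS, and the 12 HOCl mice received intradermal hypochlorous acid on 5 days per week for 6 weeks, a model of systemic sclerosis. The 4 further groups of 12 mice each received HOCl and an agent labelled D11, E07, D06 or BPR21, so that HOCl is shared by every group except the control group. D11 and E07 are antibodies to galectin-3, injected subcutaneously at 20 mg/kg every 5 days. The identity and dose of D06 and BPR21 are not given in the sources used here. The groups were kept in separate cages, so that cage and group cannot be told apart. The deposited characteristics give control mice the genotype HOCL, and groups were therefore taken from the sample titles.

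Counts on genes totalled 11932855 to 15948972 per mouse. Levels and differences are on the deposited scale of variance-stabilized (vst) values, which is close to log2 of the normalized count and compresses differences at low levels. The vst values cover 70 mice, because HOCl mouse 8 has counts only, so that the HOCl group holds 11 mice in every test on vst values and 12 in every test on counts. A gene was called when its Benjamini-Hochberg adjusted p from limma was at most 0.05 over all 10508 genes and its fold change was at least 1.3.

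The libraries were first checked against the markers of red cell precursors. Of 20 listed markers, 19 were among the vst genes, and none of the 19 had a count of 0 in any mouse. Their summed share of all counts lay between 2.88% and 14.7% per mouse, and the most abundant was Alas2, with a mean of 6.16% of all counts, followed by Fech with 0.783%. The marker Ahsp was not among the vst genes. In whole blood, a change in the number of immature red cells and a change in the RNA content of each cell cannot be told apart, and this holds for every difference below.

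Levels between genes were compared per transcript length, as RPKM, the count scaled by the total of the library and by the length of the canonical transcript. In control mice the mean level was 140 RPKM for Trim10, 123 for Ube2o and 92.0 for Bcl2l1. Tspan33, Ube2h, Fbxo7 and Hemgn followed at 43.1, 25.4, 21.6 and 12.0 RPKM. By the joint length of all exons, 14400 bases for Fbxo7 and 6221 for Tspan33 against 5534 and 2837 here, both levels would be lower. The order of these middle genes thus depends on the length used. Xpo7 and Trim58 were lowest, at 6.00 and 2.18 RPKM. The members thus span from abundant to scarce transcripts in the same blood.

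Because the levels of the members varied together across mice, their promoters were searched for letters that erythroid transcription factors are known to bind. The motifs were AGATAA and TGATAA, both of the GATA type, and CACCC, the core of KLF1 sites, each on both strands in the 250 bases before the start of the canonical transcript. AGATAA occurred in 1 of 9 members and in 9.61% of the promoters of 21757 protein-coding genes. TGATAA occurred in 0 of 9 members and in 7.63% of those promoters, and CACCC in 6 of 9 members and in 52.9%. A match is a description of letters and not of a bound site. The sequences below are those of the member with the GATA match (Trim10), and, for contrast, of a member with a CACCC match and no GATA match (Fbxo7), chosen after its values were seen. They are from GRCm39 and run 5′ to 3′ on the strand of the gene, with AGATAA or CACCC, or their reverse complements TTATCT and GGGTG, in capitals. Trim10 is read from chr17:37180156-37180405 on the + strand and Fbxo7 from chr10:85857440-85857689 on the + strand.
Trim10: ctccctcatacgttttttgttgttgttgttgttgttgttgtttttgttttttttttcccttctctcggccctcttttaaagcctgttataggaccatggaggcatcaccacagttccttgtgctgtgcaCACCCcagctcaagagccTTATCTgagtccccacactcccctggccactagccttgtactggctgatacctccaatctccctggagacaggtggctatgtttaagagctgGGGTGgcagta
Fbxo7: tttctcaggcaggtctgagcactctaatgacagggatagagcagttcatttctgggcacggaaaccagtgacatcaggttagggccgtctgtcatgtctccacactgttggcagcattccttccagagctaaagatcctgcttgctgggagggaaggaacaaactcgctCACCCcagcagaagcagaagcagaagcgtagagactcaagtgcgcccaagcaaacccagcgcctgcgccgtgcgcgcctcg
The AGATAA match of Trim10 begins at base -103 from the transcript start. Fbxo7 holds a CACCC at -81. The GC content of the windows was 48.8% for Trim10 and 56.0% for Fbxo7.

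The comparison of HOCl mice with control mice asks what the induced disease changes. All 9 members were called higher in HOCl mice, while 4.96% of the 10508 genes were called in either direction. The differences between group means ranged from 0.68 to 1.95 on the log2 scale, with a median of 1.19 beside -0.02 over all genes, and the limma Benjamini-Hochberg adjusted p from 0.00354 to 0.0199. Among all genes sorted by the difference, Trim10 was at place 2 from the top, Xpo7 at 12, Bcl2l1 at 19 and Ube2o at 31, whereas Ube2h was at 347. edgeR on counts, which called 5.12% of genes, called 8 members and left out Fbxo7 at an adjusted p of 0.0503. DESeq2 called 9, and its share of all genes in this comparison is not given here. With the mouse numbers used as blocks, although these were not taken to pair animals, limma called 4 members (Trim58, Ube2o, Xpo7 and Bcl2l1) beside 0.809% of genes.

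**Figure D1:**
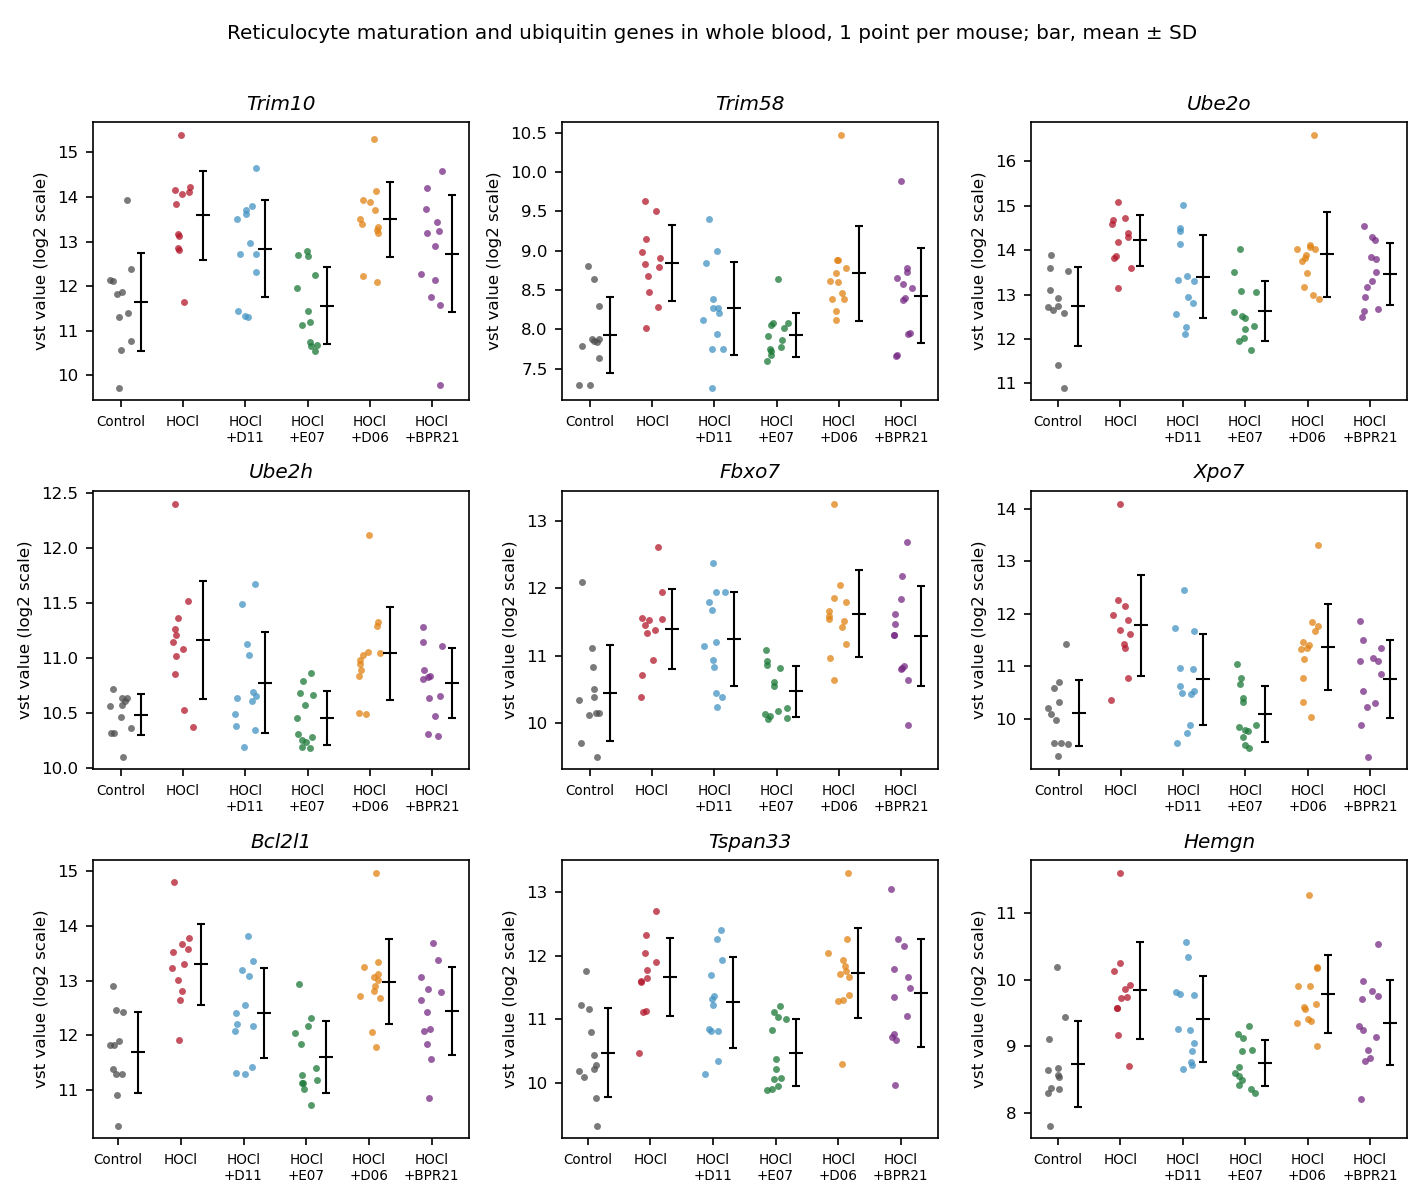
Level of each of the 9 genes in whole blood, as the deposited vst value (log2 scale, vertical axis) by group (horizontal axis), with 1 point per mouse and bars for mean ± SD (11 control, 11 HOCl and 12 mice in each other group). In every panel the HOCl+E07 points lie low like the control points, and all 12 of them lie under the HOCl median.

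Trim10 and Trim58 encode TRIM family ubiquitin ligases. Trim10 takes part in terminal red cell differentiation, and its vst level was 9.73 at lowest, 11.82 at the median and 13.93 at highest in control mice, against 11.66, 13.85 and 15.40 in HOCl mice. The groups overlapped, since 5 of 11 HOCl mice lay above the highest control mouse, and 10 of 11 lay above the control median. The mean level was 1.95 higher in HOCl mice (SE 0.392), a fold change of 3.86 (limma, Benjamini-Hochberg adjusted p = 0.00498). Trim58 acts on the motor protein dynein before the nucleus is expelled. It ran from 7.29 through a median of 7.85 to 8.81 on the vst scale in control mice and from 8.02 through 8.83 to 9.63 in HOCl mice. All 11 HOCl mice exceeded the control median and 6 exceeded every control mouse. The difference in vst level was 0.92 (SE 0.186, limma adjusted p = 0.00518). On counts, where low levels are not compressed, the log2 difference of Trim58 was 1.29 by edgeR and 1.3 by DESeq2.

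The conjugating enzymes Ube2o and Ube2h stood apart in size of change. Ube2o can act as E2 and E3 at once and marks unassembled globin and ribosomal proteins for the proteasome. Its vst level had a minimum of 10.91, a median of 12.75 and a maximum of 13.88 in control mice, and 13.15, 14.30 and 15.08 in HOCl mice. Of the HOCl mice, 11 of 11 lay above the control median and 7 above the highest control mouse. The mean difference was 1.48 on the log2 scale (SE 0.282, limma adjusted p = 0.00418). Ube2h is the E2 that works with the CTLH ligase. Its control levels were the tightest of the 9, from 10.10 to 10.71 with a median of 10.56 and an SD of 0.19, and its HOCl levels ran from 10.37 to 12.40 with a median of 11.15. As many as 9 of 11 HOCl mice therefore exceeded the highest control mouse, although the mean difference of 0.68 on the log2 scale (SE 0.157, limma adjusted p = 0.0101) was the smallest of the 9.

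Fbxo7 is the substrate receptor of a cullin 1 ligase and also binds a regulator of the proteasome. Its vst level ran from 9.51 through 10.34 to 12.09 in control mice and from 10.40 through 11.46 to 12.61 in HOCl mice. Every HOCl mouse lay above the control median, but the ranges overlapped widely and 1 of 11 HOCl mice lay above the highest control mouse. The mean vst level was 0.95 higher in HOCl mice (SE 0.248, limma adjusted p = 0.0199). That highest control mouse, number 12, had the highest level of 7 of the 9 members in its group.

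Xpo7 is a nuclear export receptor used as the nucleus condenses, and Bcl2l1 encodes BCL-XL, which keeps late red cell precursors alive. The vst level of Xpo7 was 9.29, 10.09 and 11.43 (lowest, median, highest) in control mice and 10.35, 11.69 and 14.10 in HOCl mice. For Bcl2l1 the same values were 10.34, 11.82 and 12.91 in control mice and 11.91, 13.31 and 14.80 in HOCl mice. In both genes 8 of 11 HOCl mice lay above the highest control mouse and all 11 above the control median. Mean differences in vst level were 1.67 for Xpo7 (SE 0.307) and 1.61 for Bcl2l1 (SE 0.280), each at a limma adjusted p of 0.00354.

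Tspan33 is a membrane tetraspanin of the group that carries the protease Adam10, and it is needed for normal late red cell development. Its vst level ran from 9.33 through 10.28 to 11.76 in control mice and from 10.46 through 11.65 to 12.71 in HOCl mice. Hemgn is a nuclear protein of blood precursors, with vst levels from 7.80 through 8.57 to 10.19 in control mice and from 8.70 through 9.74 to 11.61 in HOCl mice. All 11 HOCl mice lay above the control median in both genes, while 5 exceeded the highest control mouse for Tspan33 and 2 for Hemgn. The differences were 1.19 (SE 0.251, limma adjusted p = 0.00606) and 1.11 (SE 0.261, adjusted p = 0.0109) on the log2 scale.

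Scaling changed the size of these differences. With counts scaled by the total count of each library (CPM), the median difference over all genes moved to -0.46 on the log2 scale between HOCl and control mice and to 0.49 between E07 and HOCl mice. Under it 52% and 64.6% of 10501 genes were called, and 8 of 9 members were called in each comparison. Ube2h was the exception in both, at 0.27 (limma adjusted p = 0.0865) and -0.28 (adjusted p = 0.0388) on the log2 scale, the latter short of the fold threshold. Relative to the median of all genes, the CPM differences of the members between HOCl and control mice were 1.90 for Trim10, 1.69 for Xpo7, 0.97 for Fbxo7 and 0.73 for Ube2h.

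E07-treated mice were compared with HOCl mice to ask what the antibody changes in diseased animals. All 9 members were called lower, beside 7.89% of all genes called in either direction. Differences in mean vst level ran from -2.02 to -0.70 with a median of -1.19, against 0.02 for all genes, and limma adjusted p from 0.000115 to 0.00283. edgeR and DESeq2 each called 9, and their shares of all genes in this comparison are not given here. This comparison shares the HOCl mice with the previous one.

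In E07 mice the vst level of Trim10 was 10.54 at lowest, 11.32 at the median and 12.78 at highest. Ube2o had 11.75, 12.50 and 14.02, and Xpo7 had 9.44, 9.86 and 11.04 on the same scale. All 12 E07 mice lay below the HOCl median of each of the 9 genes, and 7 lay below the lowest HOCl mouse for Trim10, 10 for Ube2o and 8 for Xpo7. Trim10 fell by 2.02 on the log2 scale (SE 0.341, limma adjusted p = 0.00025), Ube2o fell by 1.59 (SE 0.232, adjusted p = 0.000115) and Xpo7 fell by 1.69 (SE 0.283, adjusted p = 0.000239).

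Bcl2l1 ran from 10.73 through 11.34 to 12.93 on the vst scale in E07 mice, and Fbxo7 from 10.07 through 10.39 to 11.08. Ube2h stayed within 10.18 and 10.87 around a median of 10.38. These 3 genes had 8, 6 and 6 E07 mice below the lowest HOCl mouse. Their differences in vst level from HOCl mice were -1.70 (SE 0.258), -0.93 (SE 0.185) and -0.70 (SE 0.156). Trim58, Tspan33 and Hemgn differed by -0.91, -1.19 and -1.10, with E07 medians of 7.89, 10.30 and 8.64.

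Between E07 and control mice, limma called 0 of 9 members, beside 0.00952% of all genes. At an unadjusted p under 0.05 the count was 0 of 9, and edgeR and DESeq2 each called 0 with 0 at that level. Differences in vst level ran from -0.11 to 0.03, with adjusted p of 0.976 or more. The intervals still allow sizeable differences, from -0.82 to 0.67 for Trim10 and from -0.21 to 0.16 for Ube2h (95% confidence, log2 scale).

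**Figure D2:**
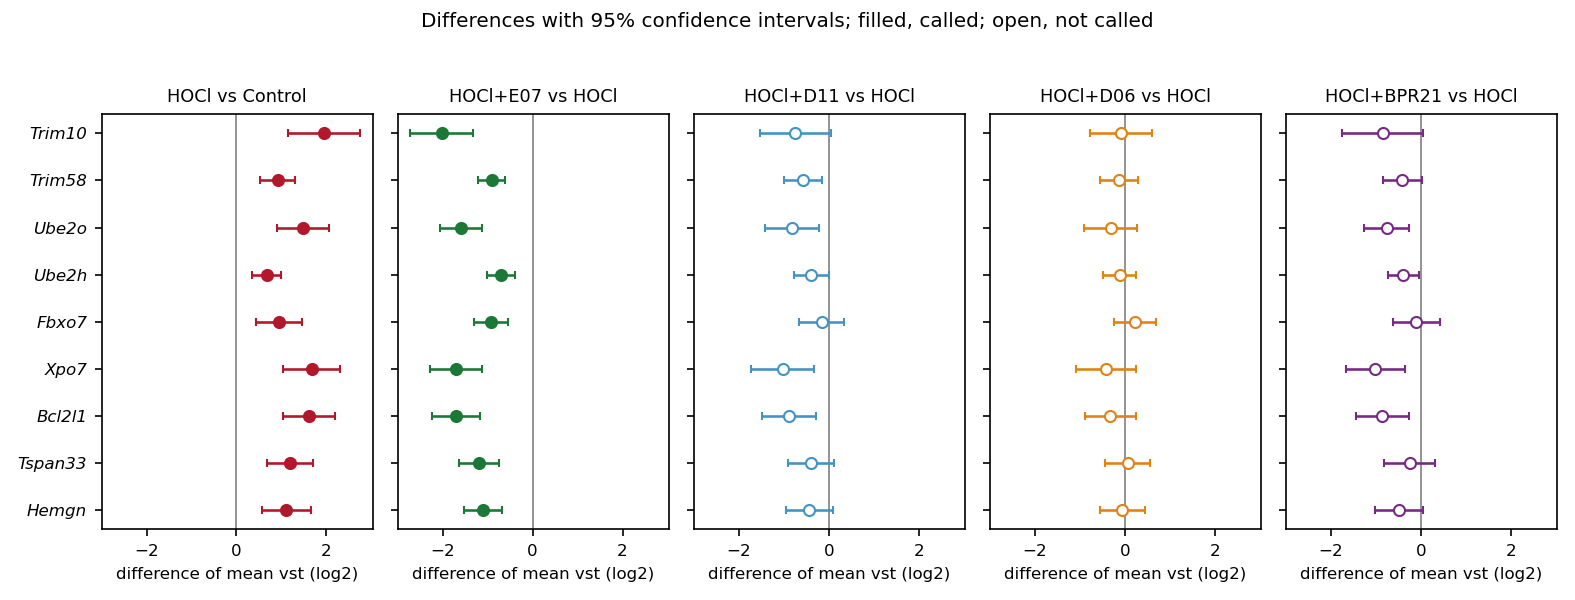
Difference in mean vst value (log2 scale, horizontal axis) for the 9 genes (vertical axis) in 5 comparisons, with 95% confidence intervals as bars, filled points for called genes and open points for the others. All 9 points are filled in the first panel, where they run from 0.68 to 1.95, and in the E07 panel, where they run from -2.02 to -0.70, and 0 of 9 are filled in the D11, D06 and BPR21 panels.

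In mean vst level D11 mice lay between HOCl and control mice for all 9 genes. Trim10 had a vst level of 11.31 at lowest, 12.85 at the median and 14.66 at highest in D11 mice. Xpo7 ran from 9.54 through 10.58 to 12.45, and Fbxo7 from 10.24 through 11.18 to 12.38. For Xpo7, 10 of 12 D11 mice lay below the HOCl median, and for Fbxo7 7 of 12 did. Against HOCl mice limma called 0 of 9 members, beside 0.0571% of all genes, with 4 of 9 at an unadjusted p under 0.05 (Trim58, Ube2o, Xpo7 and Bcl2l1). edgeR and DESeq2 also called 0, with 5 each at that level. The 9 differences in vst level were negative and ran from -1.03 for Xpo7 (95% confidence interval -1.72 to -0.33) to -0.15 for Fbxo7 (-0.65 to 0.35).

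Against control mice, limma called 0 of 9 members in D11 mice, beside 0.0761% of all genes, with 7 of 9 at an unadjusted p under 0.05, and edgeR and DESeq2 called 0 with 8 each at that level. The differences in vst level ran from 0.30 for Ube2h to 1.20 for Trim10, with limma adjusted p from 0.130 to 0.426. That count turned on 1 mouse, since without control mouse 12 limma called 4 members, in a fit whose share of all genes is not given here. With mouse numbers as blocks limma called 3, beside 1.09% of genes. With CPM scaling, which moved the median of all genes by -0.37, the difference of Ube2h turned to -0.06.

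D06 mice lay mostly above the control median. Trim10 ran from 12.09 through 13.45 to 15.29 on the vst scale, Xpo7 from 10.04 through 11.37 to 13.31 and Fbxo7 from 10.64 through 11.57 to 13.26. All 12 D06 mice lay above the control median for Trim10 and Fbxo7, and 11 of 12 did for Xpo7. Against control mice all 9 members were called higher, beside 7.88% of all genes, with differences in vst level from 0.56 to 1.86 and limma adjusted p from 0.00156 to 0.0226. With CPM scaling, whose median over all genes was -0.57 and which called 67% of genes, 8 of the 9 were called and Ube2h differed by 0.03. Against HOCl mice limma called 0 of 9, beside 0.133% of all genes, and 0 of 9 had an unadjusted p under 0.05. edgeR and DESeq2 each called 0 with 0 at that level. The differences in vst level lay between -0.41 for Xpo7 (95% confidence interval -1.08 to 0.26) and 0.22 for Fbxo7 (-0.25 to 0.70), and that of Tspan33 was 0.07 and turned to -0.03 with CPM scaling.

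BPR21 mice had the widest spread of Trim10 among the groups, with an SD of 1.32 in vst level. Trim10 had 9.79, 13.04 and 14.59 as the lowest, median and highest vst level, Xpo7 had 9.27, 10.97 and 11.86, and Fbxo7 had 9.98, 11.31 and 12.69. BPR21 mouse 1 held the lowest level of all 9 members in its group and mouse 12 the highest of all 9. Against HOCl mice limma called 0 of 9 members, beside 0.638% of all genes, with 4 of 9 at an unadjusted p under 0.05. edgeR called 0 with 4 at that level. DESeq2, which called 2.45% of genes, called 2 members lower, Xpo7 at -1.20 (adjusted p = 0.0468) and Ube2o at -0.71 (adjusted p = 0.0496) on the log2 scale. The limma differences in vst level ran from -1.02 for Xpo7 to -0.11 for Fbxo7, the latter turning to 0.00 with CPM scaling.

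Against control mice, limma called 0 of 9 members in BPR21 mice, beside 0.504% of all genes. At an unadjusted limma p under 0.05 were 9 of 9 members and 2095 of the 10508 genes. edgeR called 0 with 9 at that level, and DESeq2, which called 4.96% of genes, called 1, Tspan33, at an adjusted p of 0.0389. Differences in vst level ran from 0.29 for Ube2h to 1.09 for Trim10, with limma adjusted p from 0.0964 to 0.176. Leaving out control mouse 12 gave 4 called members, and leaving out BPR21 mouse 1 also gave 4. For both of these fits the share of all genes called is not given here. A fit of all 6 groups at once called 2 members beside 3.86% of genes, and mouse numbers as blocks called 5 beside 5.08%. With CPM scaling, which moved the median of all genes by -0.38, the difference of Ube2h turned to -0.09.

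The treated groups were also compared with each other. E07 mice had 4 of 9 members called lower than D11 mice, beside 4.57% of all genes, namely Trim10, Fbxo7, Tspan33 and Hemgn at -1.28, -0.77, -0.79 and -0.67 in vst level (limma adjusted p from 0.0278 to 0.0372). D06 mice had 9 of 9 called higher than E07 mice, beside 9.76% of all genes, with differences in vst level from 0.59 to 1.93. BPR21 mice had 5 of 9 called higher than E07 mice, beside 7.26% of all genes, namely Ube2o, Fbxo7, Bcl2l1, Tspan33 and Hemgn at 0.83, 0.82, 0.85, 0.94 and 0.61 in vst level. With CPM scaling the medians over all genes of these 3 comparisons moved to 0.39, -0.60 and -0.41. It called 4 members between E07 and D11 mice, where 44.4% of genes were called, 8 between D06 and E07 mice (74.2%) and 2, Fbxo7 and Tspan33, between BPR21 and E07 mice (45.8%). Under it the difference of Ube2h turned to 0.06 between E07 and D11 mice and to -0.08 between BPR21 and E07 mice.

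The calls between E07 and D11 mice and between BPR21 and E07 mice turned on the fit and on single mice, in alternatives added after seeing the data. Shares of all genes called are given in this paragraph for the fits of all mice, but not for those without 1 mouse. Between E07 and D11 mice edgeR called 5 members (6.74% of genes) and DESeq2 6 (8.05%), while a fit of all 6 groups called 0 members and 0% of genes. Trend and robust moderation in limma called 1, Fbxo7 (3.53%), and mouse numbers as blocks called 7 (5.3%). The count was 0 without E07 mouse 4, 8, 9 or 10, 1 without E07 mouse 2 or 7 or D11 mouse 3, 5, 9, 10 or 12, and 2 without E07 mouse 1. Between BPR21 and E07 mice edgeR and DESeq2 each called 8 members (10.4% and 12.4% of genes), and the fit of all 6 groups called 2, Fbxo7 and Tspan33 (6.68%). There the count was 8 without BPR21 mouse 1 or 2, 3 without BPR21 mouse 3 or E07 mouse 1, and 2 without BPR21 mouse 8, 9, 11 or 12 or E07 mouse 2, 4, 7, 8, 9, 10 or 11. Between D06 and E07 mice 9 members were called by edgeR (12.6% of genes), by DESeq2 (13.6%), in the fit of all 6 groups (9.67%) and in each fit without 1 mouse.

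Among D11, D06 and BPR21 mice, limma called 0 of 9 between D06 and D11 mice (0% of all genes), with 0 at an unadjusted p under 0.05 (1 by edgeR and 0 by DESeq2), and CPM scaling moved the median of all genes by -0.19. Between BPR21 and D11 mice it called 0 (0% of all genes), with 0 at that level by each of the 3 tools. Between BPR21 and D06 mice it called 0 (0.0571% of all genes), with 1 at that level, Xpo7 at -0.61 in vst level (3 by edgeR and 2 by DESeq2), and the CPM median was 0.17. edgeR and DESeq2 called 0 of 9 in these 3 comparisons.

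Sorted by mean vst level, 7 members followed the order HOCl, D06, then D11 and BPR21 in either order, then control and E07 in either order. Fbxo7 and Tspan33 instead had D06 first and HOCl next, at 11.63 and 11.40 for Fbxo7 and at 11.73 and 11.67 for Tspan33. Of the steps between neighbours in these orders limma called 2. They were the step from D11 to E07 for Fbxo7, of 0.77 (limma adjusted p = 0.0278), and that from BPR21 to E07 for Hemgn, of 0.61 (adjusted p = 0.0391). Neither was called in the fit of all 6 groups (limma adjusted p = 0.0931 and 0.0809). For 6 further steps the 95% confidence interval lay above 0 although the adjusted p, of 0.133 or more, missed the threshold. They were D11 to control for Xpo7, Bcl2l1 and Tspan33 (0.65, 0.72 and 0.79 in vst level), BPR21 to control for Trim10 and Ube2h (1.09 and 0.29), and D06 to BPR21 for Xpo7 (0.61). The intervals of the other steps held 0.

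Within this shared order, Xpo7 and Fbxo7 were set beside each other after their values had been seen, so that no test is given. The vst level of Xpo7 minus that of Fbxo7 in the same mouse was -0.66 at lowest, -0.25 at the median and -0.07 at highest in control mice, and -0.06, 0.23 and 1.49 in HOCl mice. It was thus above 0 in 0 of 11 control and 8 of 11 HOCl mice, and among the mice with vst values the lowest HOCl mouse lay just above the highest control mouse. HOCl mouse 8 ended this separation, since on the log2 scale of normalized counts its difference was -0.19, where control mice ran from -0.71 to -0.08 and the other HOCl mice from -0.06 to 1.51. In E07 mice it ran from -0.71 through -0.43 to -0.05, in D11 mice from -1.0 through -0.54 to 0.06, and in BPR21 mice from -0.92 through -0.50 to -0.15. These groups had 0, 1 and 0 of 12 mice above 0. D06 mice ran from -1.14 through -0.25 to 0.42, with 3 of 12 above 0. By mean vst level, D11 and BPR21 mice lay closer to HOCl mice for Fbxo7 and closer to control mice for Xpo7. Both genes share exon bases with genes on the opposite strand, 3121 bases of Fbxo7 with Syn3 and 2800 of Xpo7 with Gm56755, and although the libraries were strand-specific, the strand setting of the counting is not stated.

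**Figure D3:**
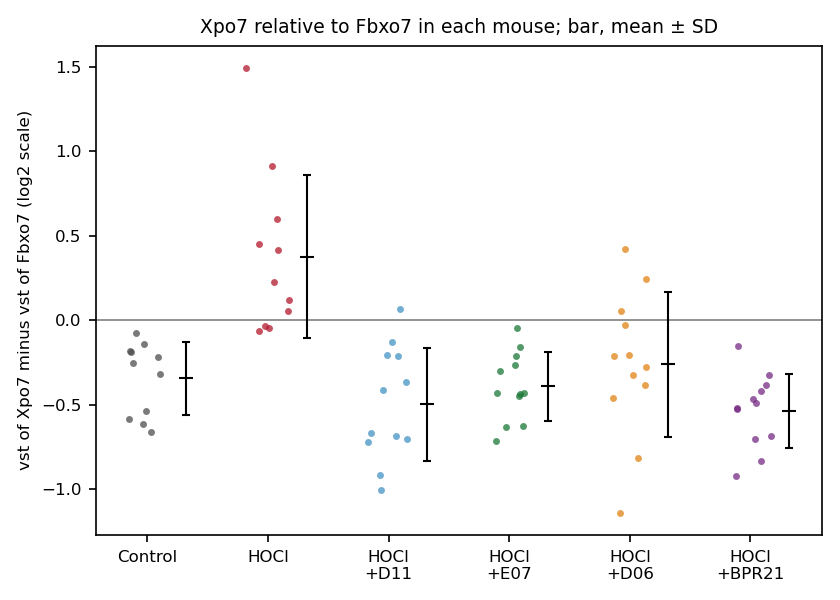
Difference between the vst values of Xpo7 and Fbxo7 in the same mouse (log2 scale, vertical axis) by group (horizontal axis), with 1 point per mouse and bars for mean ± SD. The 11 HOCl mice with vst values lie between -0.06 and 1.49, and control mice between -0.66 and -0.07, while HOCl mouse 8, which is not plotted, lay within the control range on normalized counts, at -0.19.

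Levels of the 9 genes varied together from mouse to mouse. Across 70 mice, after the mean of each group was subtracted, Pearson's r between members ran over the 36 pairs from 0.760 (Trim58 with Ube2h) to 0.957 (Bcl2l1 with Tspan33), with a median of 0.875. These correlations are a description, since all genes of a mouse share its library, its size factor and its mix of cells. In some groups a single mouse was extreme in nearly every member. HOCl mouse 7 was highest in 9 of 9 members and HOCl mouse 1 lowest in 9 of 9, and D06 mouse 5 was highest in 9 of 9. Control mouse 7 was lowest in 8 of 9. Other groups had less shared extremes, with E07 mouse 8 lowest in 4 of 9 and D11 mouse 1 lowest in 5 of 9. E07 mouse 6 was highest in 6 of 9 and D06 mouse 8 lowest in 6 of 9. Over all genes, the libraries least like their own group were BPR21 mouse 11, D06 mouse 5, BPR21 mouse 12 and control mouse 12, with a median r to the other mice of the group of 0.931, 0.935, 0.935 and 0.937, where the group medians lay between 0.957 and 0.980.

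Genes outside the 9 that were among the most like each member were found by the same r over 70 mice. For Trim10 they included Car2 (r = 0.974) and Ube2f (0.974), and for Trim58 they were Psme3 (0.894), Usp25 (0.893) and Otud5 (0.885). Ube2o was closest to Epb41 (0.977), Riok3 (0.968) and Dcaf12 (0.967), and Ube2h to Wwp2 (0.908), Glul (0.905) and Cat (0.904). For Fbxo7 they were Gabarapl2 (0.983), Iscu (0.981) and Hagh (0.977), and for Xpo7 Metap2 (0.961), Cmas (0.958) and Car2 (0.956). Bcl2l1 was closest to Slc4a1 (0.982), Fbxo9 (0.980) and Mpp1 (0.979), Tspan33 to Mkrn1 (0.968), Rnf10 (0.963) and Pink1 (0.962), and Hemgn to Cript (0.948) and Iscu (0.947). Slc4a1 and Epb41 are also on the list of red cell markers.

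The red cell markers moved with the members. Between HOCl and control mice 16 of 19 were called higher and 0 lower, with a median difference of 1.18 in vst level, with Slc4a1 at 1.80 and Epb42 at 1.70 among them. In E07 mice 17 of 19 were called lower than in HOCl mice, with a median of -1.16. Their mean share of all counts was 5.98% in control, 9.55% in HOCl, 7.19% in D11, 5.64% in E07, 8.24% in D06 and 7.50% in BPR21 mice. The 9 genes together took 0.178%, 0.359%, 0.241%, 0.170%, 0.304% and 0.236% of counts in the same groups. Over 71 mice with group means subtracted, both shares had a Pearson's r of 0.902 and a Spearman's rho of 0.870, with a shared library and a shared total behind each point. On average most of the marker share was Alas2, with a mean of 6.16% of all counts, followed by Fech with 0.783%. These correlations thus mainly describe Alas2 and not the marker set. The r of the members' share with the size factor of the mouse was -0.793. The part of the red cell markers in the members' differences was not tested.

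**Figure D4:**
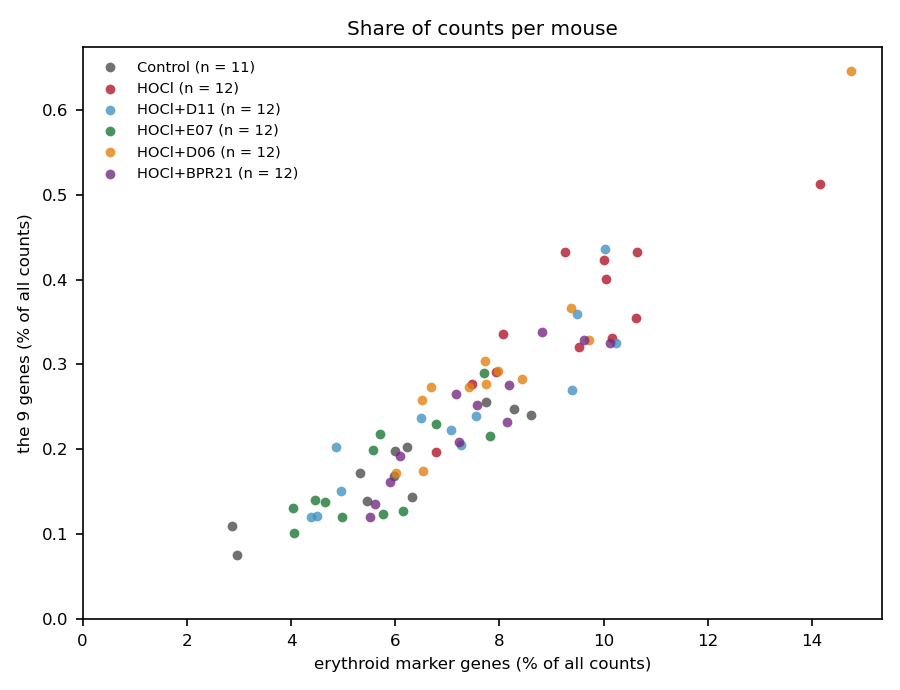
Share of all counts taken by the 9 genes (%, vertical axis) against the share taken by the 19 red cell marker genes (%, horizontal axis), with 1 point per mouse coloured by group. On average most of the marker share is Alas2, with a mean of 6.16% of all counts. The points form 1 band from control and E07 mice at the lower left to HOCl mouse 7 and D06 mouse 5 at the upper right, with marker shares of 14.2% and 14.7%.

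When each mouse was set relative to the mean vst level of its red cell markers, the members separated. Between HOCl and control mice 3 were called higher, Trim10 at 0.84, Xpo7 at 0.57 and Bcl2l1 at 0.51, beside 0.209% of all genes called higher. Ube2h was called lower at -0.43, a direction opposite to its vst difference, beside 96.5% of all genes called lower. The relative differences of Ube2o, Tspan33 and Hemgn were 0.38, 0.08 and 0.01, and those of Fbxo7 and Trim58 turned to -0.15 and -0.19, none of them called. This relative scale carries over the compression of vst differences at low levels, such as those of Trim58 and Hemgn. Between E07 and HOCl mice Trim10 at -0.86, Xpo7 at -0.54, Bcl2l1 at -0.54 and Ube2o at -0.43 were called lower, beside 0.285% of all genes called lower. Ube2h was called higher at 0.46, beside 97% of all genes called higher, while Trim58, Fbxo7 and Hemgn turned to 0.25, 0.23 and 0.06 and Tspan33 differed by -0.03, none of them called. Trim10, Xpo7 and Bcl2l1 thus differed by more than the marker mean in both comparisons, which share the HOCl mice, and Ube2h by less. Against control mice, D11 mice had 1 member called higher on this relative scale, Trim10 at 0.61, and 0 lower, where 0.0381% of genes were called higher and 56.7% lower. D06 mice had Trim10 called higher at 0.86 (0.238% of genes) and Ube2h lower at -0.43 (94.3% of genes). Between treated groups, Trim10 was called lower in E07 than in D11 mice at -0.63 (0.0666% of genes called lower and 86.1% higher), and higher in D06 than in E07 mice at 0.88 (0.305% of genes called higher). Ube2h was called lower in D06 than in E07 mice at -0.46 (95.6% of genes), and limma called 0 members between BPR21 and E07 mice, at adjusted p of 0.0542 or more, where 0.0476% of genes were called higher and 84.5% lower.

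Relatives and partners of the 9 genes were compared in the same fits. In the CTLH ligase, partner of Ube2h, 4 of 11 subunits were called higher in HOCl than in control mice and the same 4 lower in E07 than in HOCl mice, while CPM scaling gave 3 higher and 4 lower in the former and 6 higher and 2 lower in the latter. They were Ranbp10 (1.36 and -1.46 in vst level), Wdr26 (1.15 and -1.09), Ypel5 (0.86 and -0.78) and Rmnd5a (0.79 and -0.78). With CPM scaling Rmnd5a fell short of the fold threshold in both comparisons, at 0.34 and -0.31, and Ypel5 in the latter, at -0.30. Maea, which forms the catalytic core with Rmnd5a, differed by 0.00 in vst level between HOCl and control mice (SE 0.0834) and was called lower with CPM scaling, at -0.48 (limma adjusted p = 0.0379), near the median of all genes. Rmnd5a and Maea were named after their values were seen. The median of the 11 was 0.12 in vst level, and with CPM scaling it turned to -0.32, which is 0.14 above the median of all genes.

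Of 12 core cullin ligase genes, 1 was called higher in HOCl mice, Cul4a at 1.41, and it was called lower in E07 mice, at -1.34, while CPM scaling called 1 of the 12 higher and 8 lower in HOCl mice and 8 higher and 1 lower in E07 mice. Cul4a belongs to another ligase than that of Fbxo7. The partners of Fbxo7 on this list, Skp1, Cul1 and Rbx1, named after their values were seen, were not called by limma, with differences in vst level of 0.01, -0.06 and -0.04 between HOCl and control mice. With CPM scaling all of these partners were called lower, at -0.47, -0.55 and -0.53 (limma adjusted p = 0.0129, 0.0168 and 0.00925), near the median of all genes. Among 29 other E2 enzymes 7 were called higher in HOCl mice, led by Ube2c at 1.39, Ube2f at 1.26 and Ube2r2 at 1.13, and 8 were called lower in E07 mice, while CPM scaling called 6 of the 29 higher and 17 lower in HOCl mice and 17 higher and 7 lower in E07 mice. The list medians between HOCl and control mice were 0.00 for the cullin and E2 lists in vst level, and -0.50 and -0.49 with CPM scaling, beside -0.46 for all genes. Of 13 genes of organelle clearance, 4 were called higher in HOCl mice, among them Gabarapl2 at 1.21, Map1lc3b at 1.12 and Sqstm1 at 0.80, and 5 were called lower in E07 mice. CPM scaling called 2 higher, Gabarapl2 and Map1lc3b, and 3 lower in HOCl mice, and 4 higher and 3 lower in E07 mice. Their median was 0.26 in vst level and turned to -0.10 with CPM scaling, 0.36 above all genes.

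The relatives of the members in the other protein families were counted in the same way, beside 4.96% of all genes called between HOCl and control mice and 7.89% between E07 and HOCl mice. Of 27 other TRIM ligases, 1 was called higher in HOCl mice (Trim56 at 0.43 in vst level) and limma called 0 in E07 against HOCl mice, where 6 had an unadjusted p under 0.05, edgeR called 1 higher and 1 lower and DESeq2 1 higher and 2 lower. Of 13 other BCL2 family genes limma, edgeR and DESeq2 called 0 in both comparisons, with 0 and 3 at an unadjusted limma p under 0.05. Of 22 other nuclear transport receptors, limma called 1 in each, Kpna1 at 0.48 and -0.61, and DESeq2 called 2 lower in E07 mice. Of 17 genes of the list of other tetraspanins with Adam10, limma and edgeR called 0 and DESeq2 called 1 in HOCl against control mice, with 7 at an unadjusted limma p under 0.05, and limma called 2 lower in E07 against HOCl mice, Cd82 at -0.63 and Cd9 at -0.45, which were named after their values were seen, where edgeR called 1 lower and DESeq2 4. With CPM scaling 14 of the TRIM ligases, 3 of the BCL2 family, 12 of the transport receptors and 6 of the tetraspanins were called lower in HOCl than in control mice, while the median of all genes moved by -0.46. With CPM scaling 20, 8, 16 and 10 of them were called higher in E07 than in HOCl mice, where the median of all genes was 0.49. In D11, D06 and BPR21 mice against HOCl mice, 1 gene of all these lists of relatives and partners was called by limma, Bmf of the BCL2 family, lower in BPR21 mice. edgeR called 1 organelle clearance gene higher in D06 mice and 1 tetraspanin higher in BPR21 mice. DESeq2 called 1 tetraspanin higher in D11 mice, and 1 organelle clearance gene and 1 transport receptor higher in D06 mice. In BPR21 mice it called 1 cullin ligase gene and 1 BCL2 family gene lower and 1 TRIM ligase and 1 tetraspanin higher, where it called 2.45% of all genes.

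**Figure D5:**
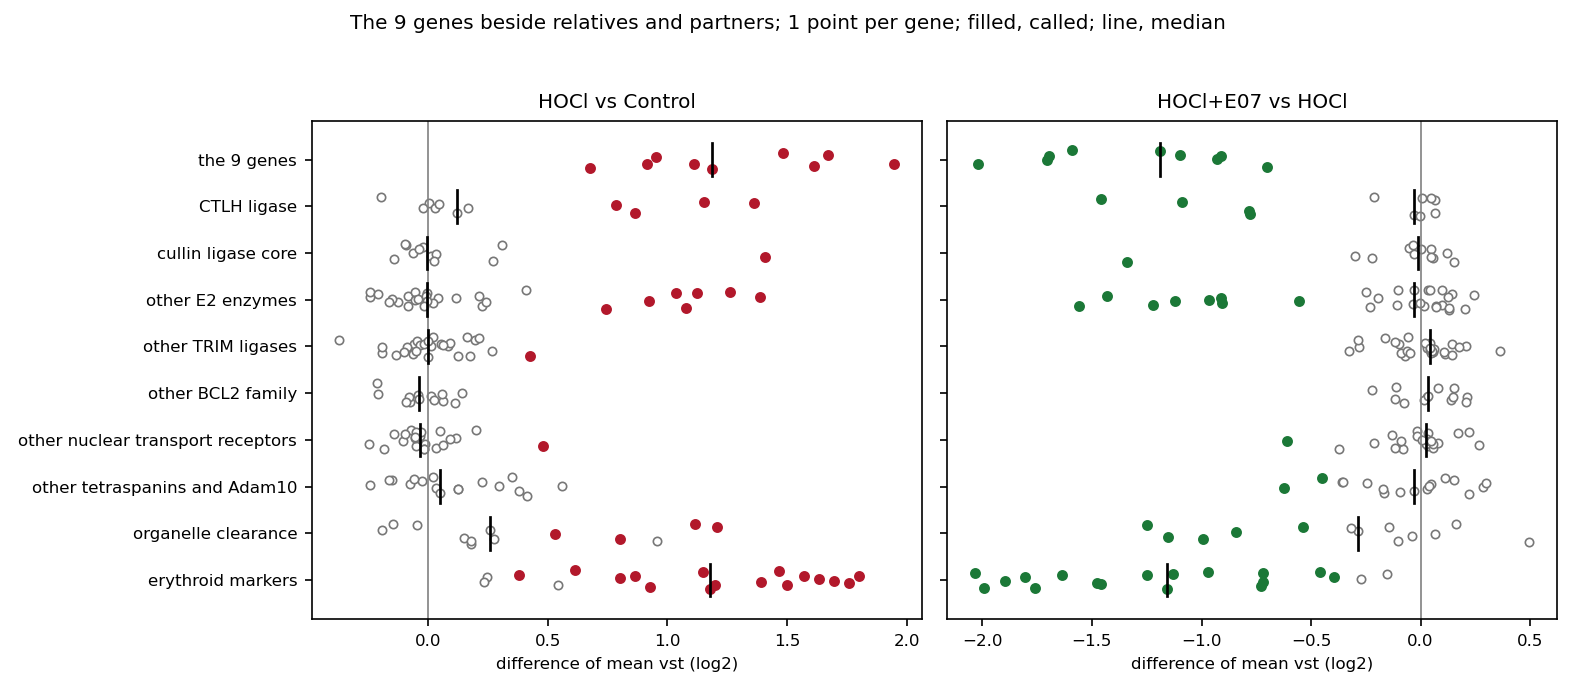
Difference in mean vst value (log2 scale, horizontal axis) for each gene of the 9 members, of 8 lists of relatives and partners and of the red cell markers (vertical axis), between HOCl and control mice and between E07 and HOCl mice, with filled points for called genes and a line at each median. The members' medians are 1.19 and -1.19, those of the red cell markers 1.18 and -1.16, and those of the TRIM list lie near 0 on this scale, while with CPM scaling the latter turns to -0.47 in HOCl against control mice and to 0.55 in E07 against HOCl mice.

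Markers of other blood cells were checked in the same libraries. Of 9 platelet markers, 5 were called higher in HOCl than in control mice, led by Gp9 at 0.63, Pf4 at 0.61 and Ppbp at 0.54 in vst level, and 9 were called lower in E07 than in HOCl mice, but with CPM scaling 0 were called in either, and edgeR called 3 and DESeq2 6 higher in HOCl mice. Of 10 neutrophil markers, 2 were called higher in HOCl mice (Camp at 0.95 and Ltf at 0.92) and 2 lower in E07 mice, where DESeq2 called 4 lower and CPM scaling 1 higher and 1 lower. Of 10 B cell markers, limma, edgeR and DESeq2 called 0 in HOCl against control mice (1 at an unadjusted limma p under 0.05, and 7 called lower with CPM scaling) and limma called 8 higher in E07 against HOCl mice. Monocyte, T cell and eosinophil markers had 0 called between HOCl and control mice by limma, with 4, 2 and 0 at an unadjusted p under 0.05, 0 called by edgeR and 1, 0 and 0 by DESeq2. With CPM scaling 4 of the monocyte and 10 of the T cell markers were called lower. Between E07 and HOCl mice limma called 3 of 10 monocyte markers lower, 2 of 4 eosinophil markers higher and 0 of 10 T cell markers, of which 2 had an unadjusted p under 0.05 and edgeR and DESeq2 called 0. edgeR and DESeq2 each called 5 of the monocyte markers lower. With CPM scaling 0 of the monocyte markers were called lower and 1 higher, and 10 of 10 T cell, 9 of 10 B cell and 3 of 4 eosinophil markers were called higher, where the median of all genes was 0.49. In the groups given the other agents, limma called 1 eosinophil marker higher than in HOCl mice in D11 and in D06 mice, Ccr3 at 0.90 and 1.17 in vst level. It called 1 monocyte marker lower in D06 mice, Cx3cr1 at -0.83, and 4 lower in BPR21 mice, which were Csf1r at -0.67, Cx3cr1 at -0.87, Ly6c2 at -0.68 and Nr4a1 at -0.55, beside 1 T cell marker higher, Lat at 0.39. These were named after their values were seen, and with CPM scaling the call of Cx3cr1 in D06 mice was the one that held. edgeR called 1, 1 and 4 monocyte markers lower in D11, D06 and BPR21 mice. DESeq2 called 3, 2 and 6 lower in the same groups, and 1 higher in D11 mice. Its share of all genes was 2.45% in BPR21 against HOCl mice and is not given for D11 and D06 mice. Of the neutrophil markers, limma called 0 in these groups, with 5, 3 and 3 at an unadjusted p under 0.05, edgeR called 1, 0 and 1 lower and DESeq2 1, 1 and 3 lower, and with CPM scaling 1 was called lower in BPR21 mice, Camp at -1.46. Of the 19 red cell markers, limma and edgeR called 0 in D11, D06 and BPR21 mice against HOCl mice, with 9, 0 and 7 at an unadjusted limma p under 0.05, and DESeq2 called 0, 1 and 3 lower. With CPM scaling 1 red cell marker was called lower in BPR21 mice, Epb41 at -0.90 (limma adjusted p = 0.0362). The 4 globin genes, whose RNA was depleted from the libraries, had 0 called in both comparisons by limma, edgeR and DESeq2, with 0 at an unadjusted limma p under 0.05, and their median of 0.48 in vst level between HOCl and control mice was 0.06 with CPM scaling, which turned the E07 median from -0.27 to 0.17. Median correlations of the members, over 70 mice, were 0.745 to 0.907 with the red cell markers, 0.437 to 0.571 with the globins, 0.218 to 0.436 with the platelet markers and -0.336 to -0.229 with the B cell markers. The part of these cells in the members' differences was not tested.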

How the data were processed

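The authors trimmed reads (cutadapt), aligned them to mm39 (STAR), counted them (featureCounts) and deposited raw counts of 55416 genes in 71 mice. They also deposited vst values of DESeq2, on a log2 scale, for 10508 protein-coding genes in 70 mice after removing genes with low expression. The members and lists were chosen with earlier results of these data known. Vst values of each pair of groups were fitted with limma 3.58.1 in R 4.3.3, with Benjamini-Hochberg adjustment over all genes. Counts of 10501 vst genes with a matched symbol were fitted with edgeR 4.0.16 (quasi-likelihood, TMM) and DESeq2 1.42.0 (Wald). CPM values were log2(CPM + 1) of the total count. Python 3.11.15 with numpy 2.4.6, pandas 2.3.3, scipy 1.17.1 and matplotlib 3.10.9 did the rest, with GENCODE vM39 for coordinates. Named genes were the members, from each list up to 3 called genes with the largest difference between HOCl and control mice, and up to 3 genes most correlated with each member. Alternatives were other tools, filters, scalings and moderation, a replicate block and leaving out mice. Libraries were strand-specific, but the strand setting of the counting is not stated, so counts of overlapping antisense genes cannot be told apart from those of members. The fits were tested on simulated data, for which no values are given here.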

Additional observations from a re-analysis of the deposited data

Results flagged for a closer look

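The vst table leaves out HOCl mouse 8, which entered the tests on counts alone. Its normalized count (count divided by the size factor) exceeded the highest control mouse for 3 of 9 members. Ube2o had 20780 normalized counts against a highest control value of 14890, Ube2h had 2581 against 1544 and Bcl2l1 had 11320 against 7522. The medians of the other HOCl mice for these genes were 19950, 2129 and 9970, and in vst level 7, 9 and 8 of the 11 other HOCl mice also exceeded the highest control mouse. For the other members mouse 8 lay at or under the highest control value, as for Trim10 at 5963 normalized counts, where the control median was 3477, the highest control value 15460 and the median of the other HOCl mice 14540.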

How the results depend on the processing

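Of 165 recomputed counts of called members, 144 stayed within 1.5 times the reported count, and of 315 recomputed single-gene differences 294 kept their side of the threshold without a change of sign in a called gene, 12 lost the call, 2 gained it and 7 changed sign in a called gene. For HOCl against control mice the count was 9 as reported, 4 with mouse numbers as the replicate block and 4 relative to the red cell markers (3 higher, 1 lower). For E07 against HOCl mice it was 9, and 5 relative to the red cell markers (1 higher, 4 lower). For D06 against control mice it was 9, and 2 relative to the red cell markers (1 higher, 1 lower). For D11 against control mice it was 0, with 3 under the replicate block and 1 relative to the red cell markers. For BPR21 against control mice it was 0, with 2 when all 6 groups were fitted at once, 1 by DESeq2 and 5 under the replicate block. For BPR21 against HOCl mice it was 0, and 2 by DESeq2. The comparisons between treated groups were recomputed in the same way after seeing the data. For E07 against D11 mice the count was 4, with 0 when all 6 groups were fitted at once, 1 with trend and robust moderation, 7 under the replicate block and 1 relative to the red cell markers. For BPR21 against E07 mice it was 5, with 2 when all 6 groups were fitted at once, 8 by edgeR, 8 by DESeq2, 8 by edgeR on genes with 10 counts in 11 mice, 2 with CPM scaling and 0 relative to the red cell markers. For D06 against E07 mice it was 9, and 2 relative to the red cell markers (1 higher, 1 lower).

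The 7 changes of sign counted arose relative to the red cell markers, among 45 single-gene differences per setting that do not cover all 15 comparisons. Between HOCl and control mice Trim58 came to -0.19, Ube2h to -0.43 and Fbxo7 to -0.15 on the log2 scale. Between E07 and HOCl mice Trim58 came to 0.25, Ube2h to 0.46, Fbxo7 to 0.23 and Hemgn to 0.0581. In comparisons outside that count, Ube2h also turned from called higher to called lower, in D06 against control mice and in D06 against E07 mice. By construction this scale subtracts a mean that itself differs between the groups. It also carries over the compression of vst differences at low levels, such as those of Trim58 and Hemgn. For the other changes the cause was not tested.

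Leaving out each mouse in turn (HOCl mice as planned, the other groups chosen after seeing the data) gave 9 to 9 called members for HOCl against control, E07 against HOCl and D06 against control mice. It gave 0 to 0 for D11, D06 and BPR21 against HOCl mice and for E07 against control mice, and 0 to 4 for D11 and BPR21 against control mice. Between treated groups it gave 0 to 6 for E07 against D11, 2 to 8 for BPR21 against E07, 9 to 9 for D06 against E07 and 0 to 0 for the other 3 comparisons. The 4 against control mice came without control mouse 12 and, for BPR21, also without BPR21 mouse 1. For the fits without 1 mouse the share of all genes called is not given here, so these counts are not set beside it.

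The replicate block assumes that equal numbers pair mice. Over all genes after group means were subtracted, same-numbered mice had a mean r of 0.0476 between HOCl and control mice, 0.1 between D11 and control mice and 0.146, the highest of the 15 comparisons, between E07 and control mice. Differently numbered mice had a mean r of -0.00139, -0.00445 and -0.00971 in the same comparisons. The mean r was higher for same-numbered mice in every comparison except BPR21 against D06 mice, where it was 0.00041 against 0.00136. The lowest pair was negative in each of the 15, from -0.421 to -0.0336, but a lowest pair cannot decide whether numbers pair mice. Whether they do was not tested. The numbers were not taken to pair mice, and against control or HOCl mice the counts under the block are values of a fit with fewer mice.

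Trim58 and Hemgn had the lowest normalized counts of the 9 members in control mice, with medians of 115 and 256, at which the vst scale compresses differences. How far depth limits each member was not compared.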

Other observations

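No mouse is labelled with the small molecule that the study also used, and the labels D06 and BPR21 have no description in the sources used here, so their values compare groups by label alone. The RNA is from blood of 1 time point, and neither counts of red cells or reticulocytes nor protein levels of the members were used here. The exon bases that members share with genes on the opposite strand were 476 for Bcl2l1, 115 for Tspan33, 9 for Ube2h and 504 for Fbxo7 with A230060F14Rik, beside those given for Fbxo7 with Syn3 and for Xpo7. Xpo7 also shares 39 with Npm2 on the same strand.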
